A study of Arabidopsis thaliana with 2 samples.

Results

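The cytosolic ribosome of plants is built from a small (40S) and a large (60S) subunit, and each protein of the large subunit is encoded by a family of near-equivalent genes, or paralogs. The genes described here are those of the 60S families RPL3 to RPL19, taken by locus from a list of 50 that leaves out the acidic stalk proteins, and 50 of the 27336 loci counted matched the list. They fall into 19 families, of which 10 have 2 listed members, 6 have 3 and 3 have 4. RefSeq lists a protein-coding gene for 50 of 50 loci, and 48 of them have a product named as ribosomal, the others being BBC1 and SAG24.

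RNA came from leaves of Arabidopsis thaliana (thale cress), ecotype Columbia. The atpip1;2-1 line, a mutant in the plasma membrane aquaporin PIP1;2, was set against a wildtype line, which asks what changes in leaf transcripts of plants short of this water channel. Each line gave 1 library of transcript 3' ends, made from leaves of 10 soil-grown plants of 3 weeks, so the plant-to-plant spread is unknown and no difference has a replicate check. The mutation is represented by a single line, called the mutant below. The library sizes were 4041759 reads in atpip1;2-1 and 4079098 in wildtype. PIP1;2 itself (AT2G45960) had 566 reads in atpip1;2-1, against 4211 in wildtype, a log2 ratio of -2.95 (-3.08 to -2.83). A list of 5 leaf mesophyll markers held 5.44% of the reads in atpip1;2-1 and 5.66% in wildtype, while 3 of 4 root markers had 0 reads in either.

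Ribosomal proteins are made in step with ribosomal RNA, assembled with it in the nucleolus and exported as pre-subunits. The large subunit holds the centre that forms peptide bonds, the tunnel through which the new chain leaves, and stalks that receive translation factors and release tRNA. Ribosomal protein genes are among the most active in growing tissue, and in plants their expression follows carbon and energy supply through the TOR kinase pathway. Several Arabidopsis mutants in 60S genes have narrow or pointed leaves.

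Plant ribosomal protein promoters are known for 2 short motifs, the telo box (AAACCCTA) and site II (TGGGCC), and both were searched on either strand in the 250 bases before and 50 bases after each annotated gene start (RefSeq, TAIR10.1). Neither motif contains the other. A telo box was present at 28 of 50 members (56%), against 6.22% of 27431 promoters of nuclear protein-coding genes. Site II was present at 37 of 50 (74%), against 15.5% of all promoters. Both motifs occurred at 21 members (42%), against 1.63% of all promoters, and neither was found at 6 members. Windows of 30 bases upstream of the gene start are shown for the member with the most reads, another abundant member, the pair with the lowest read ratios, and 4 members that include the pair with the highest ratios, with the motif in capitals and each written 5′ to 3′ on the strand of its gene.
SAC52 (RPL10, AT1G14320, chr1:4888060-4888089, plus strand): atatacaatcgaTGGGCCctaaccctatcc
EMB2296 (RPL8, AT2G18020, chr2:7837025-7837054, plus strand): aagatccacttaGGCCCAttagggttagaa
RPL3B (RPL3, AT1G61580, chr1:22723252-22723281, minus strand): attaaaactaaaTGGGCCgggctacttgac
RPL10B (RPL10, AT1G26910, chr1:9321544-9321573, plus strand): ttagttccttaaTGGGCCttattttggtcc
AT4G18730 (RPL11, chr4:10302122-10302151, plus strand): cttatttgaagAAACCCTAgtgtctttcat
AT4G27090 (RPL14, chr4:13595283-13595312, minus strand): cccaaaccacaAAACCCTAgaatgaagatt
AT4G02230 (RPL19, chr4:980907-980936, minus strand): cggcaagaaacTAGGGTTTtttcttccgag
AT5G48760 (RPL13a, chr5:19772789-19772818, minus strand): cctaattgattcGGCCCAtcataaaaaaaa
The first 4 windows and that of AT5G48760 show site II, in either direction, and the other 3 show a telo box. The match at AT4G02230 begins 227 bases before the start. In members the telo box matches were centred on the start itself (median position 0, 31 matches), and the site II matches 40 bases before it (51 matches). A match describes these letters and does not show that a factor binds there.

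**Figure D1:**
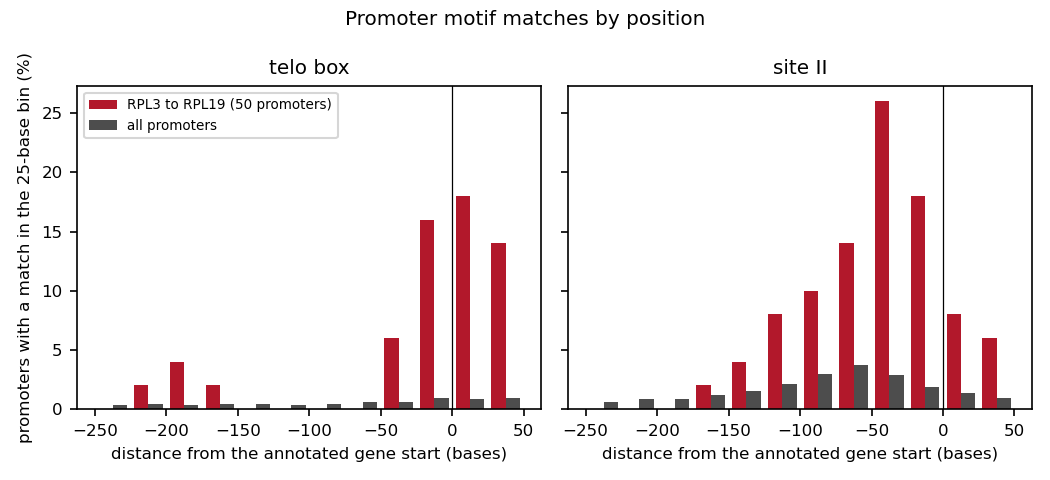
Share of promoters (%) with a telo box (left) or site II (right) match in each 25-base bin, by distance in bases from the annotated gene start, for the 50 members and all promoters. Site II peaks at 26% of members between 50 and 25 bases before the start, and the telo box at 18% in the first 25 bases after it.

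The 60S genes were lower together in the atpip1;2-1 library. Summed over the 50 members, 26784 reads were counted in the mutant, against 41312 in wildtype. This was 0.663% of the library in the mutant (0.655% to 0.671%) and 1.01% in wildtype (1.00% to 1.02%). As CPM, the read count divided by the TMM-scaled library size and put on a common scale, the sum was 6468 in the mutant and 10377 in wildtype, so the mutant library held 62.3% of the wildtype level. The log2 ratio of the sums was -0.68 (-0.70 to -0.66). All intervals here are at the 95% level, exact, and cover counting error only, since each genotype has 1 library. Reads without molecular identifiers are not independent molecules, so the intervals may be too narrow even for counting error. Fewer cells that express these genes and less RNA per cell cannot be told apart in whole leaves.

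Member by member, 49 of 50 had a log2 ratio below 0, against 50.2% of the 15111 genes tested, those to which the libraries together gave 20 reads or more. The median was -0.67 among members and -0.00 among all these genes. A gene is called lower below when its scaled level was at least 1.5-fold lower in the mutant and the interval of its ratio excluded 0. By this rule 36 of 50 members (72%) were lower, against 5.93% of all tested genes, and 0 were higher, against 5.34%. This rule describes 2 libraries, and no test of the genotype and no p-value can be given with 1 library each. At least 2-fold lower were 2 members (4%), against 1.71% of all tested genes, and 0 were at least 2-fold higher, against 1.9%. With reference genes as the scale, 6 members were at least 2-fold lower, against 2.80% of all tested genes. With a minimum of 100 reads, 35 of 49 members were called lower, against 6.69% of all genes of that depth. An interval wholly below 0 was found for 46 members, against 13.2% of all tested genes. These include 10 of the 14 members that were not called, and the intervals of the other 4 held 0. The members had between 62 and 4051 reads over both libraries, so 0 were under the read minimum.

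Abundant genes, ribosomal protein genes included, were somewhat lower as a set. Among the 1067 genes of 1000 reads or more the median log2 ratio was -0.14, 66.9% were below 0 and 13.6% (145) were called lower. The 145 include 24 members, 28 of 36 other 60S genes and 35 of 56 genes of the 40S subunit at that depth. The 13.6% therefore does not describe abundant genes outside the ribosome. The 29 members of that depth had a median of -0.72, with 29 below 0 and 24 called. Their ratios were also close to each other, with a robust SD of 0.12, against 0.35 for the 1038 other genes of that depth. This closeness was shared by the rest of the ribosome. The plain SD at that depth was 0.14 for members, 0.15 for other 60S genes and 0.19 for 40S genes, against 0.38 for all genes but members. Across the 50 members, reads and log2 ratio had a Spearman rho of -0.12 and mRNA length and log2 ratio one of -0.25, which describes members of the same libraries and is not a test.

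**Figure D2:**
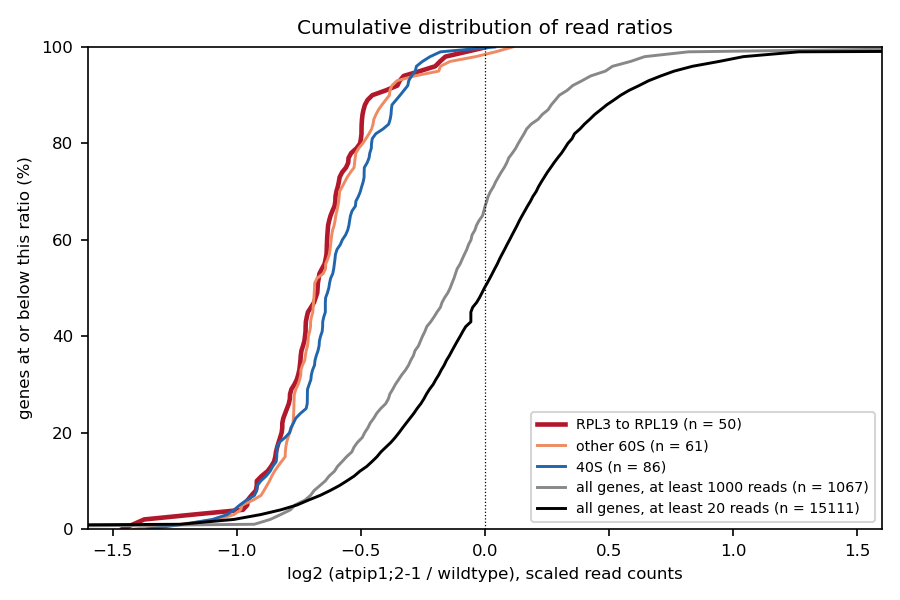
Cumulative share of genes (%, vertical axis) at or below each log2 ratio of atpip1;2-1 over wildtype (horizontal axis) for the members, 2 other sets of ribosomal protein genes, and all genes with at least 20 or at least 1000 reads. The curve of the members crosses 50% at -0.67, where that of all genes with at least 20 reads crosses it at -0.00.

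The shift did not spare any of the 19 families when reads were summed over paralogs. Family sums ran from a log2 ratio of -0.81 for RPL15 (-0.91 to -0.71) to -0.43 for RPL14 (-0.55 to -0.32), and 19 of 19 intervals lay below 0. Next to RPL15 stood RPL7 and RPL17, both at -0.80, and next to RPL14 stood RPL19 at -0.48. RPL3, RPL13, RPL18, RPL8, RPL7a and RPL10 lay between -0.75 and -0.73, and their intervals overlapped widely.

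**Figure D3:**
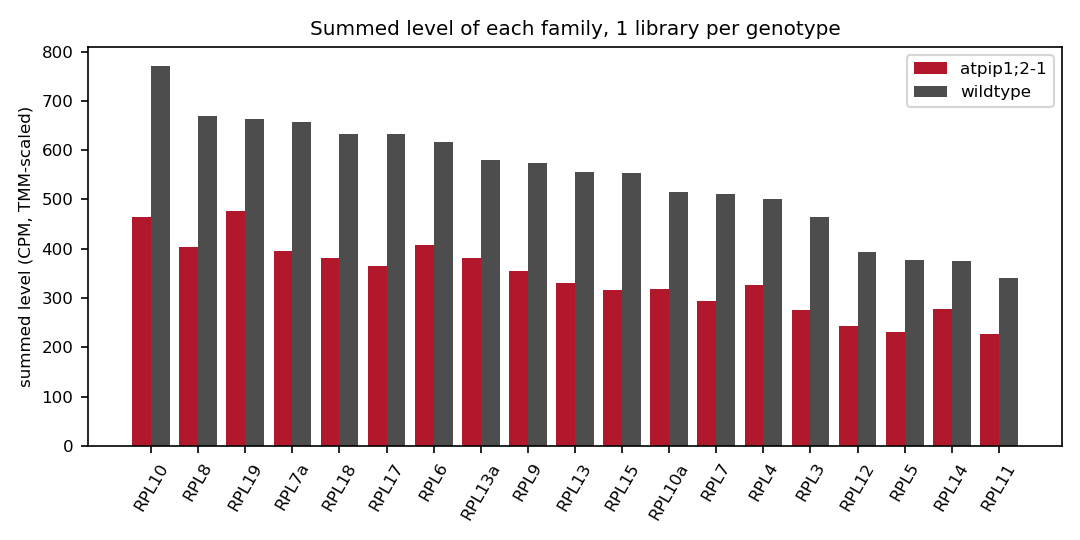
Summed level of each family in CPM (vertical axis), with atpip1;2-1 left of wildtype in each pair and families ordered by the wildtype level. Each bar is 1 library, and the atpip1;2-1 bar is the shorter one in 19 of 19 families, from 464 against 771 CPM in RPL10 to 226 against 341 CPM in RPL11.

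RPL5 and RPL11 bind the 5S ribosomal RNA and enter the subunit with it as one particle. Of their 6 genes 4 were called lower, and the reads summed to a log2 ratio of -0.65 (-0.74 to -0.57). ATL5 (AT3G25520), the RPL5 gene known as PIGGYBACK3 and OLIGOCELLULA 5 from its leaf shape mutants, had 649 reads in the mutant, against 971 in wildtype, a log2 ratio of -0.64 (-0.78 to -0.49). Its paralog RPL5B (AT5G39740), known as OLIGOCELLULA 7, had 310 reads in the mutant, against 534 in wildtype (-0.84). Both RPL5 genes were thus lower in the mutant, with overlapping intervals. Among the RPL11 genes, which RefSeq partly lists under the older name RPL16, AT4G18730 had the most reads, 417 in the mutant and 627 in wildtype (-0.65, -0.83 to -0.46). AT5G45775 had 346 reads in the mutant and 501 in wildtype (-0.59). The remaining RPL11 genes were not called, since AT3G58700 stood at -0.50 and AT2G42740, with 48 reads in the mutant and 59 in wildtype, at -0.35 (-0.94 to 0.22).

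RPL3 and RPL8 reach towards the peptidyl transferase centre, where peptide bonds form, and RPL10 is the protein that completes the subunit in the cytoplasm before it can join the small subunit. This was the group with the lowest summed ratio, -0.74 (-0.79 to -0.68), and 6 of its 7 genes were called lower. Its interval overlapped those of the 5S group above and of the stalk and outer groups below. It lay apart from that of the exit tunnel group (-0.67 to -0.57), in which RPL19 was counted with RPL4 and RPL17. By family, the intervals of RPL4 (-0.71 to -0.51) and RPL17 (-0.89 to -0.70) overlapped that of the RPL3, RPL8 and RPL10 group. The interval of RPL19 (-0.56 to -0.39) did not, so the gap depends on where RPL19 is placed. SAC52 (AT1G14320), the main RPL10 gene, named for a mutation that suppresses a dwarf mutant, had the most reads of the 50 members, 1541 in the mutant and 2510 in wildtype. Its level was 372 CPM in the mutant and 630 CPM in wildtype (log2 ratio -0.76, -0.85 to -0.67). RPL10B (AT1G26910) was the scarcest member, with 17 reads in the mutant and 45 in wildtype. It also had the lowest log2 ratio, -1.46 (-2.36 to -0.63), an interval that is wide at this depth and holds the ratio of SAC52. SAG24 (AT1G66580), an RPL10 gene named as senescence-associated, was at 364 reads in the mutant and 513 in wildtype (-0.55), just short of the 1.5-fold rule.

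In the RPL3 family the abundant RP1 (AT1G43170) had 1104 reads in the mutant, against 1751 in wildtype (-0.72, -0.83 to -0.61). The minor gene RPL3B (AT1G61580) had 39 reads in the mutant, against 97 in wildtype, and with a log2 ratio of -1.37 (-1.95 to -0.82) it was the other member past 2-fold. Both members past 2-fold were thus minor paralogs with few reads, although each had a site II match like the main gene of its family. For RPL8, EMB2296 (AT2G18020), essential for embryo development as its name says, had 1309 reads in the mutant, against 2085 in wildtype (-0.73). AT4G36130 had 359 reads in the mutant, against 580 in wildtype (-0.75), so the RPL8 paralogs moved by nearly the same ratio.

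RPL4 and RPL17 line the exit tunnel, and RPL19 has in yeast a long helix that bridges to the small subunit. Of these 7 genes 4 were called lower, and their reads summed to -0.62 (-0.67 to -0.57). AT5G02870, the RPL4 gene with more reads, had 768 in the mutant, against 1144 in wildtype (-0.63). AT3G09630, the other RPL4 gene, had 587 in the mutant, against 846 in wildtype (-0.58), just short of the 1.5-fold rule. AT1G67430 (RPL17) had 983 reads in the mutant, against 1560 in wildtype (-0.72), and AT1G27400, its paralog, was at -0.92 (-1.08 to -0.77).

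RPL19 was one of 4 families in which the intervals of a pair of paralogs lay apart, the others being RPL6, RPL7 and RPL13a. Its main gene emb2386 (AT1G02780), named for an embryo-defective mutant, had 1380 reads in the mutant, against 2014 in wildtype (-0.60, -0.70 to -0.50). AT4G02230 had 436 reads in the mutant, against 417 in wildtype. Its level was 105 CPM in both libraries and its log2 ratio 0.01 (-0.19 to 0.20), the highest of the 50 members, or -0.12 when 10 reference genes set the scale of the libraries. The intervals of these paralogs did not overlap. AT3G16780, with 159 reads in the mutant and 211 in wildtype, lay between them at -0.47 (-0.77 to -0.16).

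RPL10a forms the stalk that moves spent tRNA out, RPL12 forms the base of the stalk that receives elongation factors, and RPL9 sits close to that base. Of these 9 genes 8 were called lower, with a summed log2 ratio of -0.69 (-0.75 to -0.63). PGY2 (AT1G33140, RPL9), PIGGYBACK2, had 816 reads in the mutant, against 1251 in wildtype (-0.67, -0.80 to -0.54). Its near neighbour on chromosome 1, AT1G33120, had 545 reads in the mutant, against 845 in wildtype (-0.69), and AT4G10450 stood at -0.85. PGY1 (AT2G27530, RPL10a), PIGGYBACK1, had 556 reads in the mutant, against 812 in wildtype (-0.60). PGY1, PGY2 and PGY3 (ATL5) were found together through mutants that enhance a leaf polarity defect, and their log2 ratios of -0.60, -0.67 and -0.64 lay within each other's intervals. AT1G08360, the RPL10a gene with the most reads, had 571 in the mutant, against 946 in wildtype (-0.79), and AT5G22440 was at -0.67. In RPL12, AT3G53430 had 483 reads in the mutant, against 801 in wildtype (-0.79). AT5G60670 was at -0.87, and AT2G37190, the member of this group that was not called, at -0.49 (-0.68 to -0.30).

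The families RPL6, RPL7, RPL7a, RPL13, RPL13a, RPL14, RPL15 and RPL18 bind ribosomal RNA mostly on the outer, solvent-facing side. They hold 21 members, of which 14 were called lower, and their reads summed to -0.69 (-0.72 to -0.65). BBC1 (AT3G49010, RPL13) had 1089 reads in the mutant, against 1825 in wildtype (-0.80, -0.91 to -0.69). Its paralog AT5G23900 was at -0.50 (-0.73 to -0.28). AT3G62870 (RPL7a) had 962 reads in the mutant, against 1549 in wildtype (-0.74), with the paralog AT2G47610 at -0.71. The RPL18 gene AT3G05590 had 989 reads in the mutant, against 1519 in wildtype (-0.68), and AT5G27850 was at -0.83. These 3 families had one gene of high and one of lower read count, and the intervals of the paralogs overlapped in each.

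In RPL15, AT4G16720 had 817 reads in the mutant, against 1313 in wildtype (-0.74), and AT4G17390 was at -0.92 (-1.08 to -0.76). In RPL14, AT4G27090 had 798 reads in the mutant, against 968 in wildtype, a log2 ratio of -0.34 (-0.47 to -0.20). This was the weakest shift among the members with the most reads of their family, and the other RPL14 gene AT2G20450 was at -0.64. The RPL6 genes AT1G74050 and AT1G74060 are neighbours on chromosome 1. AT1G74050 had 615 reads in the mutant, against 833 in wildtype (-0.49, -0.65 to -0.34), and AT1G74060 had 582 in the mutant, against 790 in wildtype (-0.50). The RPL6 gene elsewhere on the chromosome, AT1G18540, had 489 reads in the mutant, against 828 in wildtype (-0.82, -0.98 to -0.65), an interval apart from that of AT1G74050.

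RPL7 spread over the widest range among families whose members had 100 reads or more. AT2G01250 had 580 reads in the mutant, against 1084 in wildtype (-0.96, -1.11 to -0.81), the third lowest ratio of the 50. AT2G44120 had 268 in the mutant, against 500 in wildtype, and stood at -0.96 as well. AT3G13580 had 255 reads in the mutant, against 282 in wildtype, a log2 ratio of -0.20 (-0.45 to 0.05). These paralogs thus fell into a pair near 2-fold lower and a gene whose interval held 0, with AT1G80750 between them at -0.62 (-0.98 to -0.27). The RPL13a family also had a gene with an interval that held 0. AT3G24830 had 652 reads in the mutant, against 917 in wildtype (-0.55), AT3G07110 stood at -0.82 (-0.98 to -0.65) and AT4G13170 at -0.64. AT5G48760 had 236 reads in the mutant, against 254 in wildtype, a log2 ratio of -0.16 (-0.42 to 0.10).

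**Figure D4:**
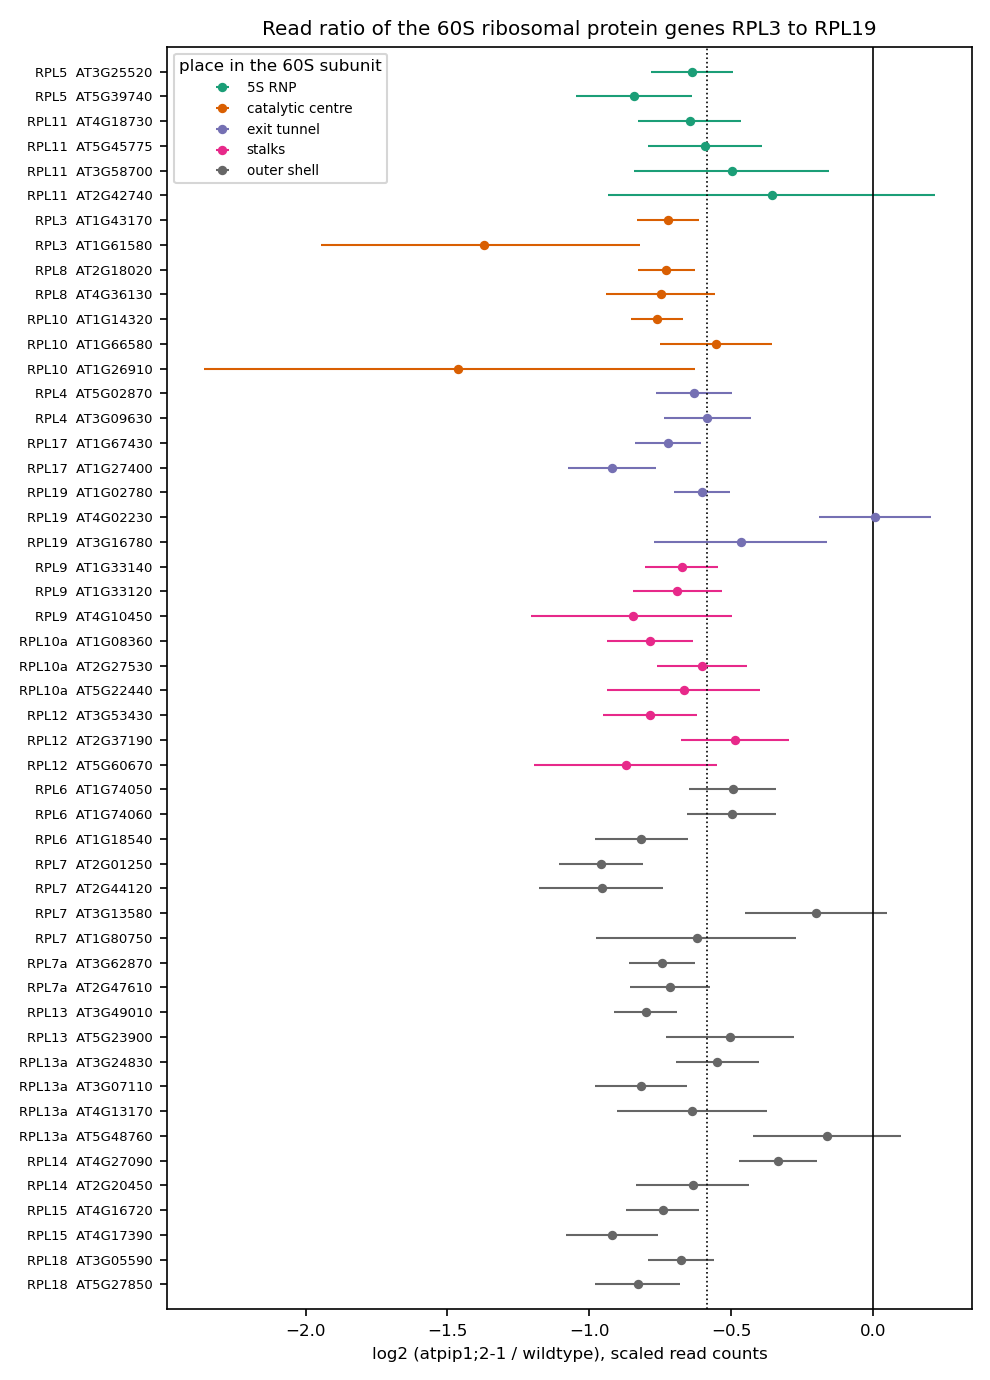
Log2 ratio of scaled reads, atpip1;2-1 over wildtype (horizontal axis), of each of the 50 members, grouped by place in the subunit and family. Bars are 95% intervals of counting error, the solid line is 0 and the dotted line 1.5-fold lower. Points lie left of the dotted line for most members, and the interval reaches 0 for AT4G02230, AT5G48760, AT3G13580 and AT2G42740.

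Reads within a family were mostly divided among its paralogs in the same way in both libraries. The paralog with the most reads was the same in 19 of 19 families, and it also had the most reads per base of the longest RefSeq mRNA in 17 of 19 families in the mutant and in 19 of 19 in wildtype. The exceptions in the mutant were RPL10a, where PGY1 held 42.8% per base against 42.7% for AT1G08360, and RPL12, where AT2G37190 held 44.8% against 42.8% for AT3G53430. Reads of these libraries come from transcript ends, so reads per base do not measure the level of a paralog. The exceptions therefore do not show a change of the leading paralog. The intervals of the share of the family reads lay apart for 7 of 50 members. In RPL7, AT3G13580 held 20.9% of the reads in the mutant (18.7% to 23.3%), against 13.9% in wildtype (12.4% to 15.4%), while AT2G01250 held 47.6% in the mutant, against 53.2% in wildtype. In RPL19, AT4G02230 held 22.1% in the mutant (20.3% to 24.0%), against 15.8% in wildtype (14.4% to 17.2%), and emb2386 held 69.9% in the mutant, against 76.2% in wildtype. In RPL13a, the share of AT5G48760 was larger by 3.91 points in the mutant, where it held 14.9%, and AT3G07110 held 31.2% in the mutant, against 36.2% in wildtype. The remaining case was AT1G18540 in RPL6, with 29.0% in the mutant, against 33.8% in wildtype. Of the 50 members, 37 had an interval of the log2 ratio that held the ratio of the summed reads, 7 lay wholly above it and 6 wholly below.

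**Figure D5:**
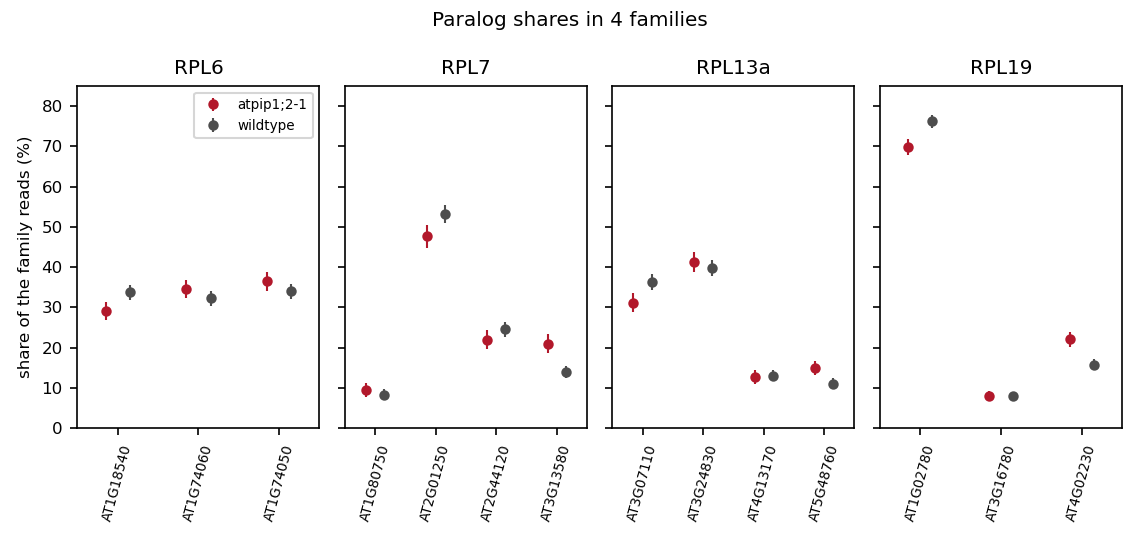
Share of the family reads (%, vertical axis) held by each paralog of RPL6, RPL7, RPL13a and RPL19, with atpip1;2-1 left of wildtype and bars for the exact 95% binomial interval of each library. AT3G13580, AT5G48760 and AT4G02230 hold a larger share in atpip1;2-1 than in wildtype, each with intervals that do not overlap.

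For most members the transcript end had a sequence of its own, judged by exact stretches of 30 bases. In the last 300 bases of the longest RefSeq mRNA, 47 of 50 members shared no stretch of 30 bases with a transcript of another gene. AT1G74050 shared 17.0% of these stretches with its neighbour AT1G74060, AT4G18730 shared 6.27% with its paralog AT5G45775, and SAG24 shared 6.27% with a gene outside the families. The values of these genes, and of AT1G74060 and AT5G45775 on the other side, are less certain to that extent. How reads with several placements were counted is not known. The 47 others, which still hold AT1G74060 and AT5G45775, had a median log2 ratio of -0.69, and 35 of them were called lower.

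The median log2 ratio was -0.64 for the 21 members with both motifs, -0.74 for the 16 with site II alone, -0.65 for the 7 with the telo box alone and -0.61 for the 6 with neither. The 3 members with the highest ratios were one of each of 3 kinds, since AT4G02230 had the telo box, AT5G48760 both and AT3G13580 neither. The 65 other 60S genes had site II at 67.7% and the telo box at 44.6%, and the 93 genes of the 40S subunit had them at 58.1% and 50.5%.

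The rest of the cytosolic ribosome was shifted by a similar amount, and the differences between these sets were not tested. Of 61 other 60S genes with enough reads, 43 were called lower and 0 higher, against 5.93% and 5.34% of all tested genes. Their median was -0.69. The most abundant of them, AT3G49910, had 1612 reads in the mutant, against 2148 in wildtype (-0.47), and emb2171 (AT3G04400) had 1261 in the mutant, against 2000 in wildtype (-0.72). AT4G31985 stood at -0.61. Past 2-fold were RPL23AB (AT3G55280) at -1.10 and AT1G07070 at -1.42. Of 86 genes of the 40S subunit with enough reads, 50 were called lower and 0 higher, with a median of -0.63. These include 3 loci, AT1G58684, AT1G58983 and AT1G59359, with identical counts of 632 reads in the mutant and 949 in wildtype, and with them taken once 48 of 84 were called lower. AT5G15200 had 1767 reads in the mutant, against 2892 in wildtype (-0.77). AT5G20290 stood at -0.81 and AT4G39200 at -0.61. Of the 4 genes of the 40S subunit past 2-fold, AT5G61170 at -1.02 and AT5G59850 at -1.06 had the most reads.

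Proteins that assemble the 60S subunit were mixed. Of 15 tested genes 5 were called lower (33.3%) and 1 higher, against 5.93% and 5.34% of all tested genes. The 1 called higher is close to the share over all genes. The median log2 ratio was -0.37. AT2G44860, with a product named as an L24e family protein, had 170 reads in the mutant, against 250 in wildtype (-0.61). AT1G25260 had 155 reads in the mutant, against 236 in wildtype (-0.66). The WD40 repeat gene AT5G15550 was past 2-fold lower with 38 reads in the mutant, against 80 in wildtype (-1.13, -1.73 to -0.56). eIF6A (AT3G55620), the factor that keeps the subunits apart until the 60S is mature, had 226 reads in the mutant, against 223 in wildtype (-0.04, -0.31 to 0.24). The gene called higher was REIL1 (AT4G31420), a homologue of a yeast factor that acts on cytoplasmic pre-60S particles, named after its value was seen. It had 123 reads in the mutant, against 78 in wildtype (0.60, 0.18 to 1.03). This level was 1.52-fold higher, just past the 1.5-fold rule.

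Of 9 genes of the TOR pathway, counting the site II binding factor TCP20, 0 were called lower and 0 higher. The shares of all tested genes were 5.93% and 5.34%, so 0 of 9 is near them and says little. Only 5 of the 9 had 100 reads or more. The median log2 ratio of the 9 was 0.20, or 0.07 with reference genes as the scale. LST8-1, a TOR complex subunit, had 248 reads in the mutant, against 202 in wildtype (0.24, -0.03 to 0.51). The S6 kinase gene PK1 (AT3G08730) had 139 in the mutant, against 174 in wildtype (-0.38, -0.71 to -0.05), and RAPTOR1 had 131 in the mutant, against 120 in wildtype (0.07).

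Of 14 markers of dividing cells, 11 had enough reads, and 3 of these were called lower and 8 were not. Of all tested genes 5.93% were called lower. The log2 ratio was below 0 for 11 of 11, with a median of -0.56. Among the markers under the read minimum, CDC6 went the other way, with 6 reads in the mutant and 4 in wildtype (0.53, -1.55 to 2.80). The summed level of the 14 markers was 93.2 CPM in the mutant and 153 CPM in wildtype, a log2 ratio of -0.72 (-0.90 to -0.53). TSO2, a ribonucleotide reductase subunit, gave 169 of the 386 marker reads in the mutant and 301 of the 610 in wildtype (-0.89). SYP111, the cell plate syntaxin KNOLLE, had 13 reads in the mutant, against 29 in wildtype (-1.21). The replication clamp genes PCNA2 and PCNA1 were not called, at -0.45 (-1.10 to 0.18) and -0.31 (-0.99 to 0.36). The cyclin CYCB1;1, a defining marker of mitosis named after its value was seen, had almost no reads, with 1 in the mutant and 2 in wildtype. Their part in the lower 60S reads was not tested.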

How the data were processed

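The authors deposited raw read counts per locus, 1 column per genotype per the file headers. Per the labels' protocols, total leaf RNA was made into 3' UTR cDNA libraries and sequenced on a Genome Analyzer II. Per the submitters' processing notes, reads were placed on TAIR9. Aligner, counter, strand use and handling of multi-mapping reads: not given in the sources used here. Without known strand use, overlapping genes cannot be told apart. A locus listed more than once with 1 value was kept once (27336 loci).

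Library sizes were scaled by TMM (edgeR 4.0.16, R 4.3.3), with factors of 1.02 for atpip1;2-1 and 0.976 for wildtype. Ratios, Clopper-Pearson intervals and calls were computed for genes whose reads in the 2 libraries summed to 20 or more (Python 3.11.15, scipy 1.17.1) and tested on simulated data. With 1 library per genotype the edgeR quasi-likelihood test has no residual degrees of freedom, so no test was made. No length correction was applied to levels, ratios or shares of family reads, because reads come from transcript ends. Reads per base were used only to compare the order of paralogs.

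Members and lists were chosen with earlier results of these data known. The naming rule took each family's member with the most reads, members past 2-fold, the 3 highest and 3 lowest ratios, and in each list the 3 genes with the most reads and up to 2 past 2-fold, and it covers 24 members. The other 26 members, with log2 ratios from -0.96 to -0.35 and 18 called lower, are named outside the rule, after their values were seen. So are REIL1, CYCB1;1, CDC6 and 3 loci of the 40S list with identical counts. Alternatives were other scalings (DESeq2 1.42.0 among them), folds and read minimums. Symbols and sequences are from RefSeq TAIR10.1, which may differ from the build of the counts.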

Additional observations from a re-analysis of the deposited data

How the results depend on the processing

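The ratio of the summed reads was -0.61 with total counts, -0.61 with totals that leave out organelle genes and the top 20 by reads, and -0.81 with 10 reference genes as the scale, against -0.68 with TMM. Reference genes moved the median of all genes by -0.13, and since a scaling adds 1 constant to every log2 ratio, the median of the members minus that of all genes is -0.67 under each by construction. Between 27 (total counts) and 45 (reference genes) members were called lower at 1.5-fold, and 0 were called higher. Over all genes 896 were lower and 807 higher with TMM, 668 and 1052 with total counts, and 1456 and 488 with reference genes. At 2-fold the count of lower members was 2 with TMM, total counts and DESeq2 size factors, and 6 with reference genes. The share of all tested genes that were 2-fold lower was 1.71%, 1.23%, 1.55% and 2.80%, in that order. The read minimum, a prior count of 1, families as units and, added after seeing the data, members with unshared transcript ends left the median between -0.71 and -0.67. Of the values of single members, families and lists, 269 stayed the same and 29 moved, and 0 called values changed sign. Staying the same meant within the main interval for members and families. For list medians it meant a move smaller than the SD of log2 ratios across genes, which is not an error of the median. Taking 40S loci with identical counts once, also added after seeing the data, gave 48 called lower, against 50. No paired analysis was possible because each genotype has 1 library, and no replicate could be left out. Counting depth limits the minor paralogs RPL10B, RPL3B and AT2G42740.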
